A study of Rattus norvegicus with 36 samples.

Results

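Fos, Fosl1, Jun, Junb, Jund and Atf3 were followed in rat skeletal muscle at rest and after a bout of resisted contractions. Every probe set that the platform annotation assigned to one of these 6 symbols was taken, which gave 12 probe sets for 6 genes out of 8740 probe sets and 4736 genes on the array. Fos had 3 probe sets (X03347cds_g_at, X06769cds_at and X06769cds_g_at), Jun had 4 (X17163cds_s_at, rc_AA944014_at, rc_AA945867_at and rc_AI175959_at) and Junb had 2 (X54686cds_at and rc_AA891041_at). Fosl1 (M19651_at), Jund (D26307cds_at) and Atf3 (M63282_at) had 1 each. Probe sets of a gene read the same transcript, so the 12 are not independent, and signals were compared within a probe set and not between probe sets.

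The 36 arrays fell into 6 groups by their titles. Muscle 1 h after contraction gave 4 arrays of total RNA and 4 of polysomal RNA, and muscle 6 h after contraction gave 8 arrays of each. Controls without contraction were 8 polysomal arrays, called the polysomal control here, and 4 arrays whose title says 1hr polysome but whose description names no polysomes, called the control titled 1hr polysome. Whether those 4 arrays hold total or polysomal RNA is therefore not settled by the labels, and a total RNA control at 6 h was not analysed here. The titles of the polysomal control name no time, so the labels do not mark it as a control taken at 6 h. Both control groups were entered here with a time of 1 h, so the 6 h groups have no control entered at 6 h. The source was rat skeletal muscle (ta), and strain, age, sex and the contraction protocol are not given in the sources used here. Each number within a group had an array a and an array b, whose mean was taken as 1 replicate, which left 2 or 4 replicates a group. The labels do not say that numbers are separate animals, so a p-value here is set against the spread among these samples and that spread may be technical.

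AP-1 is a dimeric transcription factor made of a Fos family protein (Fos, Fosl1) and a Jun family protein (Jun, Junb, Jund), or of 2 Jun proteins, joined through leucine zippers. Fos, Jun, Junb and Atf3 are immediate early genes, whose transcription starts within minutes of a growth, calcium or stress signal without new protein synthesis. Fosl1 is a delayed member that AP-1 itself can induce, and Jund is usually made constantly. Atf3 belongs to the related ATF/CREB family, is induced by many cell stresses and can pair with Jun proteins. Polysomal RNA is RNA bound to several ribosomes, commonly read as the messages being translated.

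All 12 probe sets were above 129.5, the signal used as a floor, on at least 4 arrays and were tested with the other probe sets that passed, 6707 in all. The control muscle already carried clear signals of Fos, Jun and Atf3. Of 216 pairs of arrays a and b over these probe sets, 92.6% lay within 2-fold of each other, with a median ratio of 1.17. The 3' over 5' ratios of the control probe sets for beta-actin and GAPDH, which rise when RNA is degraded, ran from 1.01 to 4.48 and from 0.0374 to 1.3. Number 3 of the 6 h total group stood apart at 9.01 to 11.5 and 9.73 to 11.4. Each of the 14 tested muscle fibre markers was above the floor on at least 1 array of every group.

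**Figure D1:**
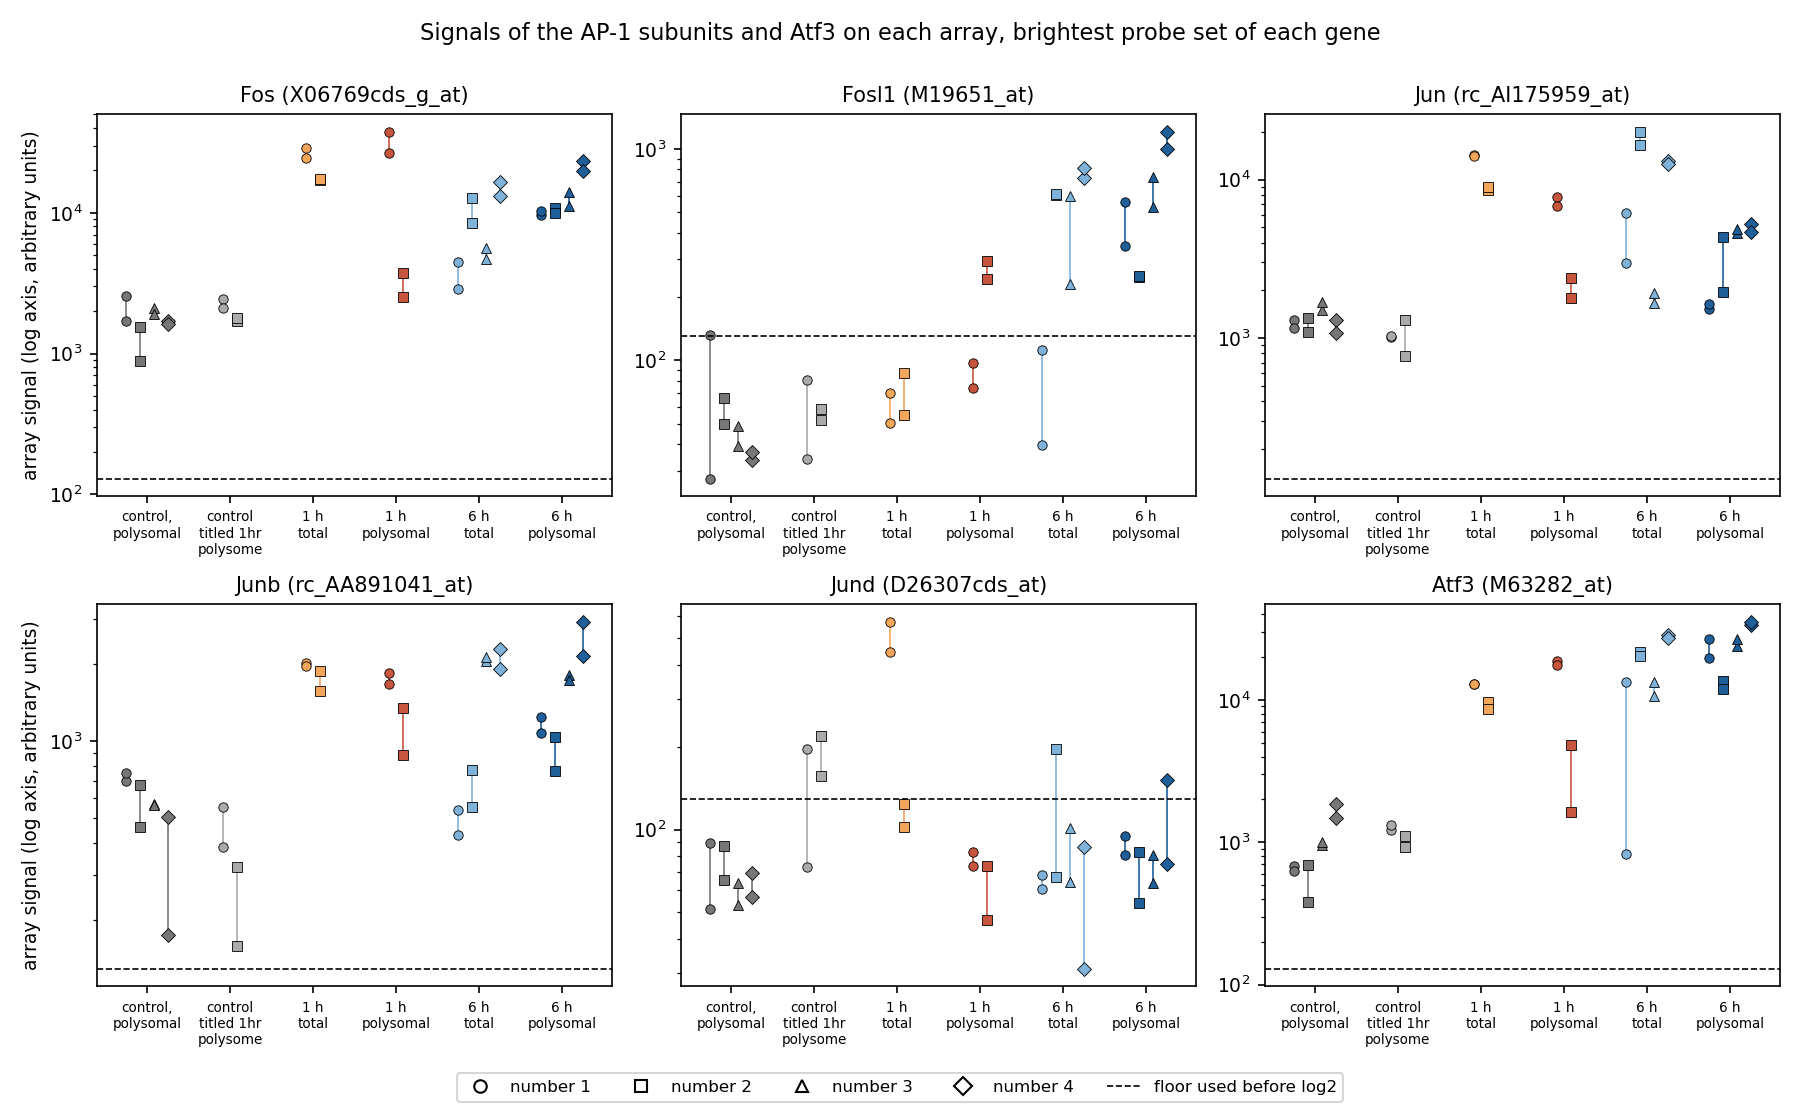
Signal of the brightest probe set of each gene on every array (log axis, arbitrary units), with the 2 arrays of a number joined by a line and the floor of 129.5 dashed. Fos and Atf3 lie above both control groups in nearly all contracted samples, Fosl1 leaves the floor mainly at 6 h, and Jund stays near or below the floor outside the control titled 1hr polysome and number 1 of the 1 h total group.

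After contraction the polysomal RNA of the 6 h muscle held more Atf3 and more Fos than the polysomal control. The difference was tested with limma in 1 fit of all 6 groups, and p-values were adjusted by Benjamini-Hochberg across all 6707. By that test 2 of the 12 probe sets passed an adjusted p of 0.05, M63282_at of Atf3 and X06769cds_g_at of Fos, against 0.343% of all probe sets (23 of 6707). At an unadjusted p of 0.05 it was 9 of 12 against 5.67%. All 12 differences were above 0, with a median log2 difference of 1.46 against -0.03 over all probe sets. The replicate ranges did not overlap for 9 of the 12, against 4.59% of all probe sets. Beta-actin 3' over 5' ratios were 1.58 to 3.88 in the polysomal control and 2.54 to 4.48 in the 6 h polysomal group. GAPDH ratios were 0.0374 to 1.19 and 0.0702 to 1.3, and the part of RNA quality in the differences was not tested. Of 18 listed macrophage markers 9 were tested and none called. Differences were above 0 for 6 of the 9, with a median of 0.05 against -0.04 over all genes. Their signals summed to 6660 to 9980 per replicate in the polysomal control and to 7620 to 19200 in the 6 h polysomal group. None of the 9 was at the floor on every array of either group, and their part in the result was not tested. In muscle RNA of many cells, more cells of a type and more RNA per cell cannot be told apart.

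At 1 h none of the 12 probe sets passed in polysomal RNA, where limma called 0% of all probe sets at an adjusted p of 0.05 and 4.46% (299) at an unadjusted p of 0.05. Of the 12, 7 had an unadjusted p below 0.05 in this comparison, and 11 differences were above 0 (median 1.76). The ranges of the 2 replicates did not overlap for 9 of the 12, with Jund the 1 of these that was lower, but this was so for 31.7% of all probe sets. In total RNA at 1 h, set against the same control, 1 of the 12 passed, X54686cds_at of Junb, against 0.0745% of all probe sets (5 of 6707), and 10 had an unadjusted p below 0.05, against 11.1%. There 11 differences were above 0, with a median of 2.76 against 0.03 over all probe sets, and 10 ranges did not overlap, against 49.8% of all. GAPDH 3' over 5' ratios were 0.513 to 1.02 in the control titled 1hr polysome and 1.15 to 1.3 in the 1 h polysomal group, and their part in the polysomal differences was not tested. These comparisons share the 4 arrays of the control titled 1hr polysome, and in the one of total RNA the effects of contraction and of RNA fraction cannot be told apart if those arrays are polysomal.

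**Figure D2:**
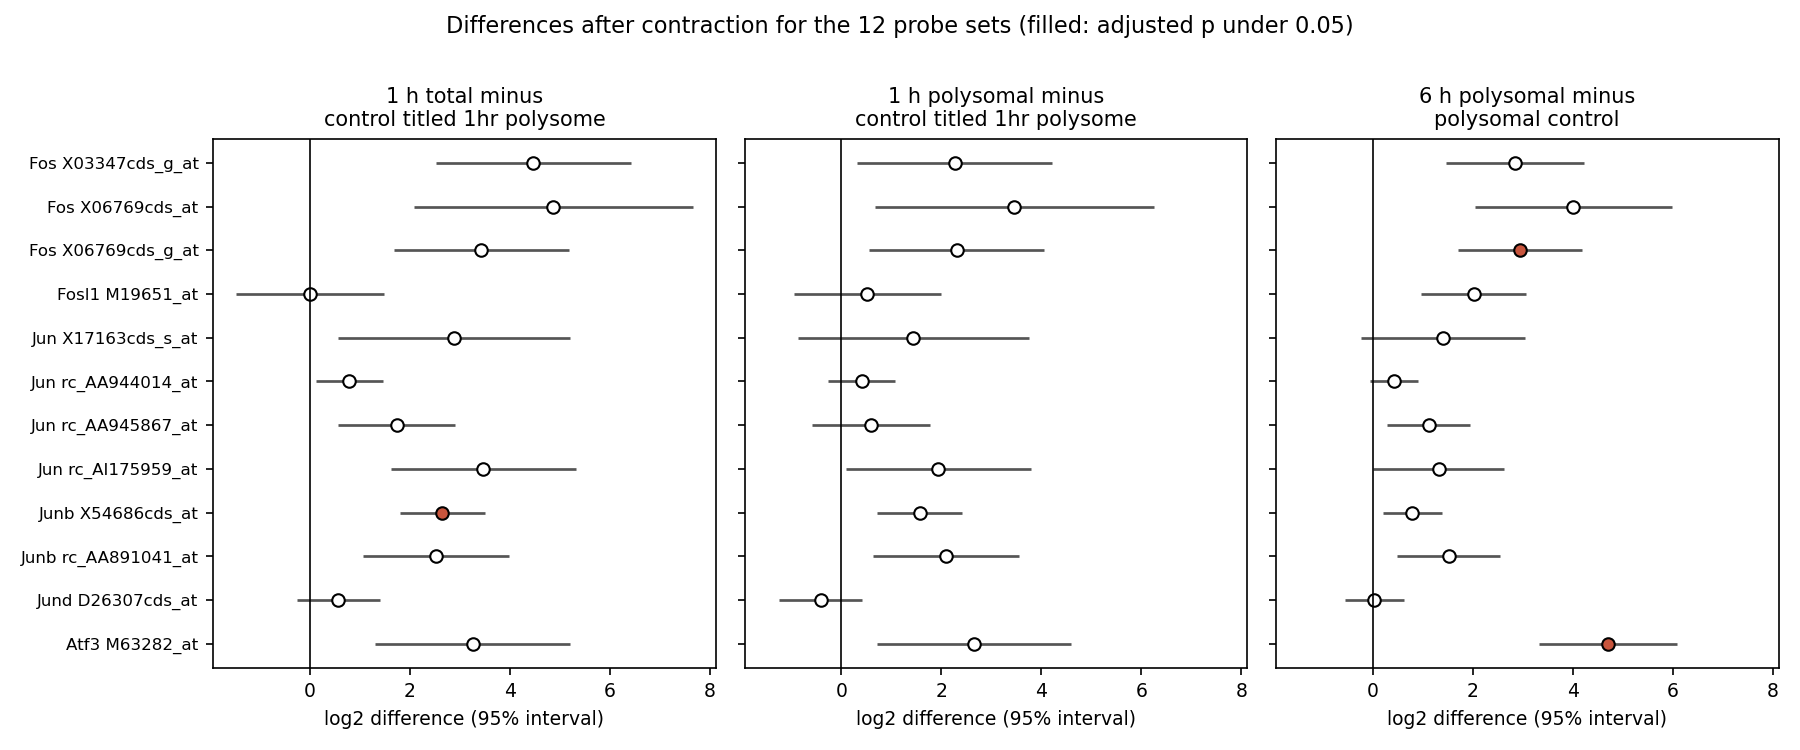
Log2 difference and 95% interval of each of the 12 probe sets at 1 h in total RNA, at 1 h in polysomal RNA and at 6 h in polysomal RNA, each against its control; filled points have an adjusted p under 0.05. Fos and Atf3 lie right of 0 in all 3 panels, while Fosl1 is at 0 in total RNA at 1 h and at 2.02 in polysomal RNA at 6 h.

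Fos encodes the subunit that gives AP-1 much of its activating strength, and its message is short-lived. On X06769cds_g_at the control titled 1hr polysome had signals of 2430 and 2092 for number 1 and 1708 and 1788 for number 2. The 1 h total arrays read 28698 and 24514 for number 1 and 17203 and 17251 for number 2. Every 1 h total array was therefore above every control array. The log2 difference was 3.43 (SE 0.82, 10.8-fold, n = 2 against 2), and it did not pass in limma's test (adjusted p = 0.147).

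Polysomal Fos at 1 h split by number. Number 1 read 37782 and 26481, whereas number 2 read 3706 and 2507, still above the 4 control arrays. The mean log2 difference from the control was 2.31 with a 95% interval of 0.55 to 4.06 (limma adjusted p = 0.99). The other Fos probe sets showed the same split, with 7360 and 8802 against 964 and 940 on X03347cds_g_at and 10766 and 9391 against 833 and 572 on X06769cds_at. The split was not a matter of 1 array, since both arrays of a number gave like signals. Beta-actin 3' over 5' ratios were 2.0 and 2.44 in number 1 and 3.59 and 4.28 in number 2, and their part in the split was not tested.

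At 6 h polysomal Fos was even across numbers. Over the 8 arrays X06769cds_g_at ran from 9686 through a median of 10975 to 23323, against 881, 1695 and 2577 in the polysomal control. The lowest 6 h array was above the highest control array. Fos rose 7.66-fold (log2 2.94, SE 0.58, n = 4 against 4, adjusted p = 0.043 in limma). The call was lost when any 1 of the 8 replicates was left out (adjusted p from 0.0521 to 0.194), with the difference between 2.69 and 3.06. With the control titled 1hr polysome in place of the polysomal control the difference was 2.70 (adjusted p = 0.148).

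The other Fos probe sets gave differences of the same kind without passing. X03347cds_g_at ran from 2917 to 7289 at 6 h and from 314.5 to 1156 in the polysomal control, a log2 difference of 2.85 (SE 0.65, limma adjusted p = 0.0961). X06769cds_at ran from 2377 to 7911 against 56.4 to 804, with 3 of the 8 control arrays below the floor (difference 4.01, SE 0.92, limma adjusted p = 0.104). On all 3 Fos probe sets the 6 h and control ranges were separate. Signals on the 3 followed each other closely over the 18 replicates (Pearson 0.939 to 0.972), as a description of replicates that share groups.

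Total RNA at 6 h held less Fos than total RNA at 1 h on every Fos probe set, and the replicate ranges did not overlap on any of them. X06769cds_g_at ran from 2871 to 16614 over the 8 arrays at 6 h (median 7045). Beta-actin 3' over 5' ratios were 1.22 to 1.62 in the 1 h and 1.01 to 11.5 in the 6 h total group. GAPDH ratios were 0.53 to 0.905 and 0.538 to 11.4. The highest of both were in number 3 at 6 h, and the part of RNA quality in the differences between times was not tested. The log2 difference of 6 h from 1 h was -1.55 on X06769cds_g_at, -2.24 on X03347cds_g_at and -2.27 on X06769cds_at, and none passed in limma's test (adjusted p = 0.641, 0.553 and 0.66). In this comparison 0 of the 12 probe sets passed, against 0.0596% of all (4 of 6707). Of the 12, 5 had an unadjusted p below 0.05, against 7.71% of all, and 4 had separate ranges, against 13.1%.

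Fosl1, also called Fra-1, is a Fos family protein without the strong activation domain of Fos. The RefSeq table holds a promoter for Fosl1, Junb and Jund, 3 of the 6 genes, and these are printed. Their matches were not tested against the signals. Each window is the 250 bases before the annotated start on GRCr8, read 5' to 3' on the gene's strand. Both strands were searched for the AP-1 site TGACTCA, for the cyclic AMP response element TGACGTCA and its shorter form TGACGT (a part of it), for the CArG box that serum response factor binds and for the TATA box TATAAA. Capitals mark the matches. The Fosl1 window, chr1:212183635-212183884 on the plus strand, held none of these.

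Fosl1: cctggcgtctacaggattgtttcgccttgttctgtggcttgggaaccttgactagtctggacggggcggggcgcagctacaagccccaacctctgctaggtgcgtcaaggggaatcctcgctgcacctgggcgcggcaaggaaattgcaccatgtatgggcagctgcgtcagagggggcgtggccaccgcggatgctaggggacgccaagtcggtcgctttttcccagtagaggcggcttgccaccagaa

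Fosl1 left the floor mainly at 6 h, but no difference between 6 h and 1 h passed for it. On M19651_at it was below the floor on all 4 arrays of the control titled 1hr polysome (33.9 to 80.7), on all 4 of the 1 h total group (50.2 to 87.0) and on 7 of 8 polysomal control arrays, the other reading 130.8. In 1 h polysomal RNA number 1 read 96.9 and 73.8, below the floor, and number 2 read 294.0 and 243.2, above it. So at 1 h the replicate with the lower Fos was the one with measurable Fosl1. That replicate also had more signal of macrophage markers (14300 summed over 9, against 6840 in number 1) and of neutrophil markers (1590 summed over 3, against 316), and their part in the split was not tested.

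At 6 h Fosl1 was above the floor on all 8 polysomal arrays, from 248.0 through a median of 544.5 to 1209. The difference from the polysomal control was 2.02 (SE 0.49, 95% interval 0.97 to 3.06, limma adjusted p = 0.125), with the control replicates at the floor. The value depends on that floor: with one at the 20th percentile it was 3.25 (limma adjusted p = 0.0328), and with log2(signal + 100) and no floor 2.07 (0.036). Without number 2 of the 6 h polysomal group it was 2.37 (limma adjusted p = 0.0493). Only 4 of the 18 alternatives gave a call for Fosl1, with differences from 1.66 to 3.25 and limma adjusted p up to 0.463. In 6 h total RNA 6 of 8 arrays were above the floor. Number 1 read 111.8 and 39.7, while numbers 2 to 4 ran from 229.8 to 810.4. Against the 1 h total group, which was at the floor throughout, this was 2.99-fold higher, with a limma adjusted p of 0.597. Number 1 of the 6 h total group was set to the floor too, so the value is not a lower bound. The replicate ranges overlapped.

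Jun, the main DNA-binding partner of Fos, was read by 4 probe sets of very different brightness. On rc_AI175959_at the control titled 1hr polysome read 1008 and 1026 for number 1 and 769.2 and 1300 for number 2. The 1 h total arrays read 14296 and 14213 for number 1 and 8613 and 8973 for number 2. All 1 h total arrays were above all control arrays, with a log2 difference of 3.47 (SE 0.86, 11.1-fold, limma adjusted p = 0.166). In 1 h polysomal RNA number 1 read 7811 and 6835 and number 2 read 2386 and 1777, the same order of numbers as for Fos. That difference was 1.94 (95% interval 0.10 to 3.79, limma adjusted p = 1.0).

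At 6 h Jun spread widely in total RNA. Number 1 read 6128 and 2992 on rc_AI175959_at, number 2 read 20140 and 16649, number 3 read 1914 and 1669, and number 4 read 13148 and 12502. Polysomal signals at 6 h ran from 1529 through 4473 to 5211 and the polysomal control from 1075 through 1301 to 1677. The 6 h polysomal and control ranges overlapped, since 1 of the 4 polysomal replicates lay within the control range. The difference was 1.32 (SE 0.61, limma adjusted p = 0.867).

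The Jun probe sets did not give one order of the 6 h total replicates. For number 3, whose 3' over 5' ratios stood apart, X17163cds_s_at read 182.1 and 166.8, the lowest of the 4 numbers, while rc_AA944014_at read 768 and 713.0, the highest. For number 2 X17163cds_s_at read 6122 and 4839, the highest of that group. The RNA quality of number 3 moved with this disagreement, and its part was not tested. Across the 18 replicates the Jun probe sets correlated from 0.395 to 0.868.

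**Figure D3:**
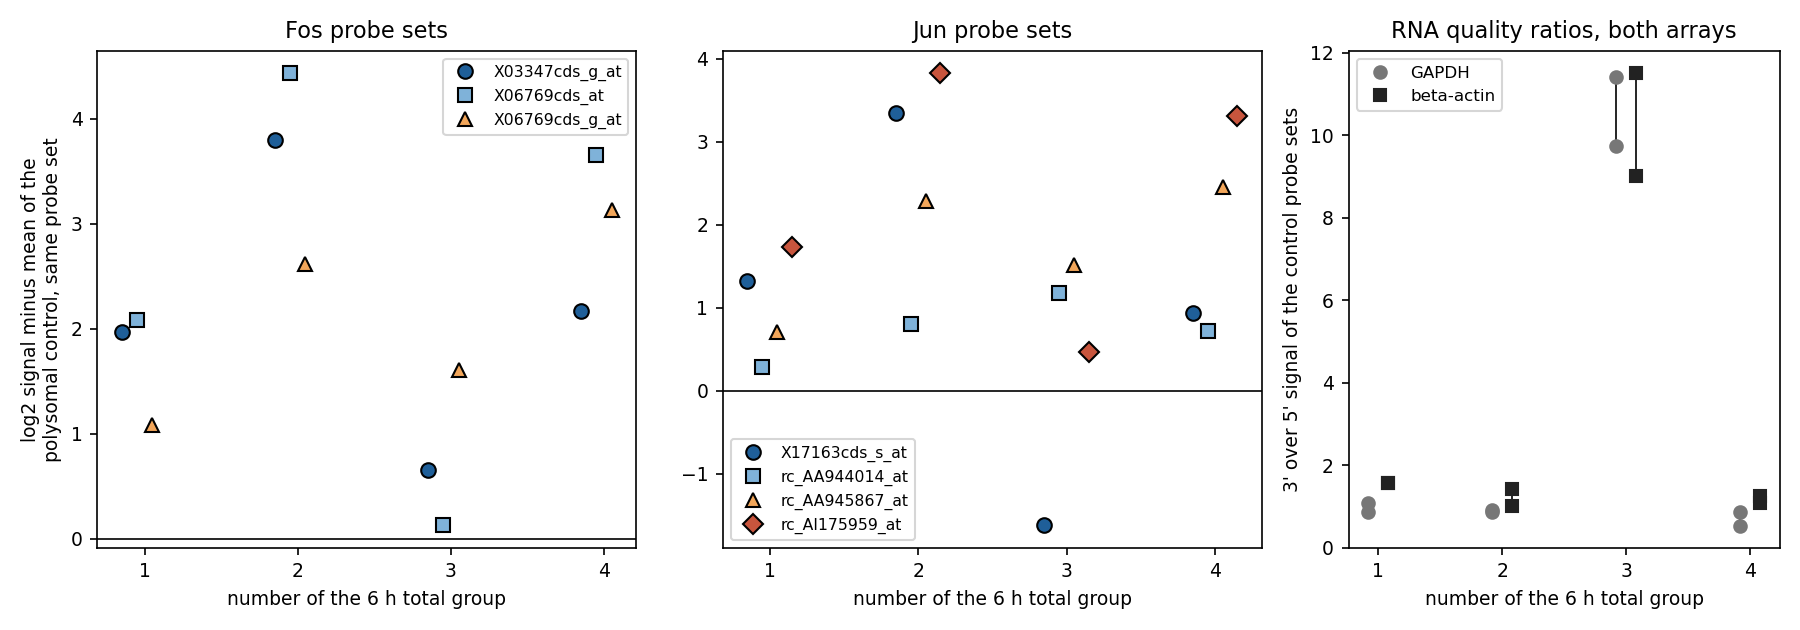
Left and middle: log2 signal of each Fos and Jun probe set in the 4 numbers of the 6 h total group, less the mean of the same probe set in the polysomal control. Right: 3' over 5' ratios of GAPDH and beta-actin on both arrays of each number; number 3 has ratios of 9.01 to 11.5, and there X17163cds_s_at of Jun, at array signals of 182.1 and 166.8, lies below the control while the other Jun probe sets lie above it.

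The 3 dimmer Jun probe sets gave smaller or similar differences. In 1 h total RNA the log2 difference from the control was 2.88 on X17163cds_s_at, 1.74 on rc_AA945867_at and 0.79 on rc_AA944014_at, and none passed (limma adjusted p = 0.33, 0.26 and 0.354). In 6 h polysomal RNA the same probe sets gave 1.41, 1.12 and 0.42 (limma adjusted p = 1.0, 0.476 and 0.995). In each of these the replicate ranges of the contracted and control groups were separate. This was so for 49.8% of all probe sets in total RNA at 1 h and for 4.59% in polysomal RNA at 6 h. In 1 h polysomal RNA the ranges overlapped for rc_AA945867_at and rc_AA944014_at, with differences of 0.60 and 0.41.

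Junb is a weaker activator than Jun and can restrain it, and in muscle it is also known for promoting fibre growth. Its promoter window, chr19:40080876-40081125 on the plus strand, held 1 match, TATAAA starting at -49, where -1 is the base before the start. TATAAA was found in 12.9% of the 33469 rat windows of the same length. The window held no TGACTCA, which 4.05% of all windows hold, and no CArG box, which 1.5% hold.

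Junb: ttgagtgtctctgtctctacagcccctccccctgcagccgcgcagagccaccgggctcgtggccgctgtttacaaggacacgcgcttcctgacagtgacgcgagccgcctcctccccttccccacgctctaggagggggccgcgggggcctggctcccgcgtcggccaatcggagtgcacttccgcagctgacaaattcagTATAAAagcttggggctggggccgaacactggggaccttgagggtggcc

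Junb was the member that passed in total RNA at 1 h. On X54686cds_at the 1 h total arrays read 1765 and 1643 for number 1 and 1270 and 1442 for number 2. The control titled 1hr polysome read 461.8 and 181.1 for number 1 and 312.8 and 56.2 for number 2, the last below the floor. No control array came near the 1 h total signals. The geometric mean was 241 in this control and 414 in the polysomal control. Against the polysomal control, which also differs in RNA fraction, the log2 difference was smaller, 1.88 (limma adjusted p = 0.0079). In that fit 564 of all 6707 probe sets passed. Against the control titled 1hr polysome Junb rose 6.29-fold (log2 2.65, SE 0.40, n = 2 against 2, adjusted p = 0.0164 in limma). Without any 1 of the 4 replicates the call was lost (adjusted p from 0.0592 to 0.112, the lone replicate then assumed to vary like the other groups), and it was lost with a floor at the 20th percentile (adjusted p = 0.0513) and in a fit of these 2 groups alone (0.139).

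The second Junb probe set, rc_AA891041_at, read 2022, 1967, 1887 and 1573 in 1 h total RNA against 556.4, 386.6, 321.7 and 158.9 in the control, again without overlap. Its difference was 2.52 (SE 0.68, limma adjusted p = 0.195). The polysomal difference at 1 h was 2.10 on this probe set and 1.57 on X54686cds_at, the latter with the smallest adjusted p of the 12 in that comparison (0.646 in limma). Here number 2 was not far below number 1: the arrays of X54686cds_at read 1062 and 574.1 for number 1 and 980.8 and 434.3 for number 2. The wide split of Fos and Jun at 1 h was thus not seen for Junb.

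By 6 h total Junb was lower on X54686cds_at, from 325.6 through 561.0 to 1098. The difference of 6 h from 1 h total RNA was -1.41 (SE 0.34, unadjusted p = 0.000952), with separate ranges, but did not pass after adjustment in limma (adjusted p = 0.409). Polysomal Junb did not follow: X54686cds_at ran from 415.4 through 706.1 to 1282 at 6 h, a difference of 0.01 from 1 h (95% interval -0.72 to 0.74). On rc_AA891041_at the 6 h total numbers fell apart, with 538.6, 429.9, 774.9 and 553.1 for numbers 1 and 2 and 1920 to 2302 for numbers 3 and 4. The 6 h polysomal difference from control was 0.79 on X54686cds_at and 1.52 on rc_AA891041_at (limma adjusted p = 0.482 and 0.357).

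Jund, the Jun protein usually present in resting cells, was the dimmest of the 6 with respect to the floor. Its promoter window, chr16:18769772-18770021 on the minus strand, held TGACGTCA at -221. TGACGTCA occurs in 1.59% of all windows. TGACGT was found 3 times, at -221 and -219 on both strands of that palindrome and at -99 on the opposite strand, and at least once in 6.95% of all windows.

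Jund: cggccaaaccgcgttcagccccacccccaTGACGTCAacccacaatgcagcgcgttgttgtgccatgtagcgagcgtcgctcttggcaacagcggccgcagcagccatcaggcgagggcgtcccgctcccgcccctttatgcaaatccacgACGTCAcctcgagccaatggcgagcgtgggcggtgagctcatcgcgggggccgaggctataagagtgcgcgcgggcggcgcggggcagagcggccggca

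D26307cds_at was above the floor on only 7 of the 36 arrays. Number 1 of the 1 h total group read 443.4 and 573.3, whereas number 2 read 102.3 and 124.2. The control titled 1hr polysome read 72.9 and 196.5 for number 1 and 157.3 and 219.4 for number 2. All 8 polysomal control arrays (51.4 to 89.3) and all 4 polysomal arrays at 1 h (46.8 to 82.7) were below the floor, and 1 array of 8 was above it in each 6 h group. Its differences therefore depend on the floor: 0.57 in total RNA at 1 h (limma adjusted p = 0.643) and 0.03 in polysomal RNA at 6 h (limma adjusted p = 1.0). The 1 h total value turned on the replicate: without number 2 the difference was 1.55 (limma adjusted p = 0.00993) and without number 1 it was -0.41.

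Atf3 gave the largest difference of the 12 probe sets in polysomal RNA at 6 h. M63282_at ran from 11874 through 25360 to 35397 over the 8 arrays, against 380.4, 824.2 and 1869 in the polysomal control. Every 6 h array was far above the highest control array. Atf3 rose 26.1-fold (log2 4.71, SE 0.64, n = 4 against 4, adjusted p = 0.00385 in limma), higher in 4 of 4 replicates. The call held under all 18 alternatives (adjusted p up to 0.034), with differences from 4.31 to 5.02.

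At 1 h Atf3 was already high in total RNA. The arrays read 12853 and 12847 for number 1 and 9675 and 8642 for number 2, against 1214, 1318, 1104 and 933.7 in the control. The groups did not overlap, and the difference was 3.26 (SE 0.91, 9.56-fold, limma adjusted p = 0.215). Polysomal Atf3 at 1 h split as Fos did, with 18678 and 17719 for number 1 and 1624 and 4832 for number 2. Its difference from the control was 2.66 (95% interval 0.71 to 4.60, limma adjusted p = 0.99).

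In 6 h total RNA Atf3 ran from 827.0 through 16797 to 28599. The lowest value was 1 array: number 1 read 13374 on array a and 827.0 on array b, the widest disagreement among the 216 pairs at 16.2-fold. On that array b 11 of the 12 probe sets were lower than on array a, although over all tested probe sets the 2 arrays correlated at 0.953. The share of all probe sets lower on array b was not counted, so it is not known whether this is particular to the members. The other numbers ran from 10715 to 28599, all above every control array. The difference of 6 h from 1 h in total RNA was 0.19 (95% interval -1.5 to 1.87), and 0.69 without array b, an alternative added after seeing the data. Atf3 thus had signals at 6 h in total RNA that overlapped those at 1 h, where Fos did not.

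**Figure D4:**
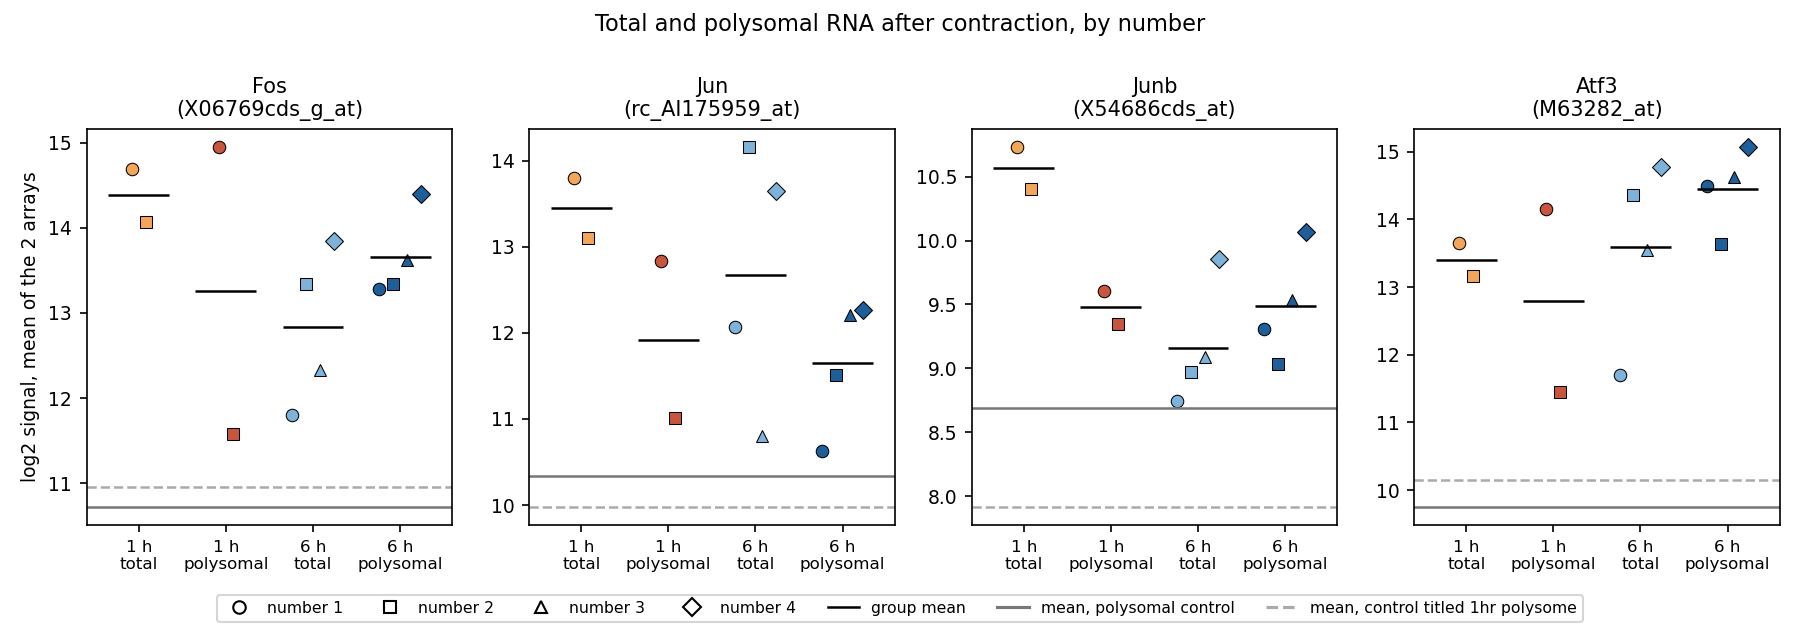
Log2 signal (mean of the 2 arrays) of Fos, Jun, Junb and Atf3 for each number of the 4 contracted groups, with group means as black bars and the means of both control groups as horizontal lines. Number 2 of the 1 h polysomal group lies far below number 1 for Fos, Jun and Atf3, and polysomal Jun at 6 h lies below the mean of total Jun.

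Polysomal and total RNA were compared within a time. At 6 h 0 of the 12 probe sets passed in limma, against 8.77% of all probe sets (588 of 6707), and none of the 12 had an unadjusted p below 0.05, against 26.5% of all. The ranges of the fractions overlapped for all 12, against 11.8% of all probe sets with separate ranges. Beta-actin 3' over 5' ratios at 6 h were 2.54 to 4.48 in polysomal RNA. In total RNA they were 1.01 to 1.58 in numbers 1, 2 and 4 and 9.01 to 11.5 in number 3. GAPDH ratios were 0.0702 to 1.3 in polysomal RNA. In total RNA they were 0.538 to 1.09 in numbers 1, 2 and 4 and 9.73 to 11.4 in number 3. The part of RNA quality in the fraction differences at 6 h was not tested. Atf3 differed by 0.86 (95% interval -0.51 to 2.24), Fos X06769cds_g_at by 0.83 (-0.41 to 2.07) and Fosl1 by 0.44 (-0.60 to 1.48). Jun rc_AI175959_at had the lowest value, -1.02 (-2.32 to 0.29). X17163cds_s_at of Jun was 0.41 higher in polysomal RNA but -0.46 without number 3 of the total group.

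At 1 h 11 of the 12 probe sets were lower in polysomal than in total RNA, with a median of -1.10 against -0.06 over all probe sets. RNA quality moved with the fraction: beta-actin 3' over 5' ratios were 2.0 to 4.28 in polysomal and 1.22 to 1.62 in total RNA, and GAPDH ratios 1.15 to 1.3 and 0.53 to 0.905, and their part in the difference was not tested. None passed in limma, against 0.388% of all (26 of 6707), and 3 had an unadjusted p below 0.05, against 15.8% of all. Those were X03347cds_g_at of Fos at -2.20 (95% interval -4.14 to -0.25), X54686cds_at of Junb at -1.09 (-1.93 to -0.25) and D26307cds_at of Jund at -0.98. Ranges were separate for 5 of the 12, against 48.7% of all. Number 2 of the polysomal group set the sign for some of them: without it Fos X06769cds_g_at was 0.57 higher in polysomal RNA and Atf3 0.75 higher, where the full data gave -1.12 and -0.60.

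The difference between fractions was itself compared between 6 h and 1 h. It was larger at 6 h for 11 of the 12 probe sets, with a median of 1.17 against -0.08 over all probe sets. The value was 2.90 on Fos X03347cds_g_at (95% interval 0.51 to 5.28), 1.41 on Junb X54686cds_at (0.38 to 2.44) and 1.47 on Atf3 (-0.92 to 3.85). Under the alternatives these values fell as low as 1.36, 1.22 and 0.12. RNA quality differed between the fractions at both times, as given above, and its part was not tested. None of the 12 passed in limma (adjusted p from 0.849 to 0.99), against 0% of all probe sets, and 2 had an unadjusted p below 0.05, against 5.55%. The polysomal response at 6 h less that at 1 h was 2.05 for Atf3 (-0.33 to 4.43), 1.49 for Fosl1 (-0.32 to 3.30) and -0.77 for Junb X54686cds_at (-1.80 to 0.26), all with a limma adjusted p of 1.0, against 0% of all called (2.58% at an unadjusted p of 0.05). Polysomal RNA at 6 h against 1 h also gave 0 of 12, against 0% of all called (5.46% at an unadjusted p of 0.05), with a limma adjusted p of 0.809 for Fosl1.

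The levels over the 6 groups can be put in order within a probe set. For Fos X06769cds_g_at the geometric means were 21400 in 1 h total RNA, 12900 in 6 h polysomal, 9820 in 1 h polysomal, 7280 in 6 h total, 1980 in the control titled 1hr polysome and 1690 in the polysomal control. Only the step from 6 h total to the controls had separate ranges among neighbours. Atf3 was highest in 6 h polysomal RNA at 22500, then 12400 in 6 h total, 10800 in 1 h total and 7140 in 1 h polysomal. Its controls were at 1130 and 862. Junb X54686cds_at had its highest mean in 1 h total RNA, 1520, separate from the next, 6 h polysomal at 717.

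The control groups were also set against each other. In the polysomal control against the control titled 1hr polysome 0 of 12 passed in limma, against 0% of all called (5.47% at an unadjusted p of 0.05). The largest difference was 0.78 on X54686cds_at of Junb (95% interval 0.05 to 1.51, limma adjusted p = 0.892), and the others ran down to -0.41 for Jund and -0.40 for Atf3.

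Other genes with the bZIP domain of these factors were read from a list. Genes of the lists are given by their brightest probe set; by limma 0.384% of all 3903 genes passed at 6 h in polysomal RNA, 0% at 1 h in polysomal RNA, 0.0512% at 1 h in total RNA, and 9.38% and 0.333% between fractions at 6 h and 1 h. Of 14 tested other bZIP genes none passed in polysomal RNA at 6 h, with a median of 0.00 against -0.04 over all genes. Mafk, a small Maf protein that dimerizes with other bZIP factors, had the smallest p (0.69 higher, SE 0.25, limma adjusted p = 0.518). At 1 h Ddit3, the stress factor also called CHOP, was 1.10 higher and Fosl2, another Fos family member, had a difference of -0.45 (limma adjusted p = 1.0 for both). At 6 h Ddit3 was the 1 gene of the 14 that passed between fractions, 2.70-fold higher in polysomal than in total RNA (limma adjusted p = 0.0457). Beta-actin 3' over 5' ratios also differed between the 6 h fractions, as given above. Their part in the fraction calls of this and the other lists was not tested.

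Among 20 tested kinases and phosphatases that act upstream of AP-1, none passed against control at 6 h (median -0.11) or at 1 h (median 0.07). Dusp5, a phosphatase that switches off ERK, was 1.12 higher at 6 h (SE 0.27, limma adjusted p = 0.125) and Mapk14, the p38 alpha kinase, had a difference of -0.49 (0.694). Between fractions at 6 h 3 were higher in polysomal RNA and 1 lower by limma, where 9.38% of all genes were called. These were Ppp3ca, the calcineurin catalytic subunit (0.89, adjusted p = 0.00646), Map3k1 (1.2, 0.0335) and Dusp6 (0.97, 0.048), with Araf at -0.51 (0.0406). Ppp3ca was also higher in polysomal RNA at 1 h (1.2, limma adjusted p = 0.0423).

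Of 23 tested textbook targets of AP-1, 3 rose in polysomal RNA at 6 h and none fell, with a list median of 0.16. Over all 3903 genes 15 rose and 0 fell in that comparison (0.384% called), with a median of -0.04. Hbegf, a growth factor of the EGF family, rose from a geometric mean of 233 to 2020 (log2 3.11, SE 0.46, adjusted p = 0.00821 in limma). Plaur, the urokinase receptor, rose from 182 to 1210 (2.74, SE 0.43, adjusted p = 0.0118 in limma), and Cd44, a hyaluronan receptor, from 178 to 693 (1.96, SE 0.32, adjusted p = 0.0154 in limma). At 1 h none of the 23 passed (median 0.26); Plaur was 1.71 higher, Hbegf 1.62 and Timp1, an inhibitor of matrix proteases, 1.18 (limma adjusted p = 0.99 to 1.0).

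None of 29 tested other immediate early genes passed against control at either time, with medians of 0.35 in polysomal RNA at 6 h, 0.26 at 1 h and 0.47 in total RNA at 1 h. Egr1, a zinc finger factor induced through serum response factor, was 2.77 higher at 6 h (SE 0.65, limma adjusted p = 0.113) and 3.22 higher at 1 h (SE 0.92, limma adjusted p = 0.737). Ccn1, a matrix protein of the CCN family, was 2.0 higher at 6 h and the nuclear receptor Nr4a3 1.89 higher (limma adjusted p = 0.173 and 0.123). Between fractions at 6 h 2 of the 29 passed in limma, against 9.38% of all genes. These were Klf6, a zinc finger factor, and Nfkbia, the inhibitor of NF-kappa B. They were higher in polysomal RNA, by 2.32 (limma adjusted p = 0.0114) and 1.51 (0.00463).

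The genes whose log2 signals over the 18 replicates were most like each member were found by Pearson correlation, given as a description of replicates that share groups. Egr1 was among the 3 nearest to Fos (0.941), Junb (0.874) and Atf3 (0.922). Atf3 was nearest to Hspa1a, the inducible heat shock protein 70 (0.95), followed by Egr1 and by Ppp1r15a, also called Gadd34 (0.915). Fos was followed by Errfi1 (0.881) and Nr4a3 (0.868), and Junb by Icam1 (0.825) and Ppp1r15a (0.777). Jun was nearest to Sgk1 (0.868), Dnajb1 (0.867) and Dusp1 (0.866).

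Fosl1 had other neighbours, P2rx5 (0.928), Plin2 (0.909) and Pdpn (0.904). Jund, at the floor on most arrays, was nearest to Akap12 (0.923), Gper1 and Vsnl1 (0.847 each). Among the members Fos X06769cds_g_at and Atf3 correlated at 0.908, Fosl1 and Atf3 at 0.733 and the 2 Junb probe sets at 0.877.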

How the data were processed

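The authors deposited linear intensity signals, 1 per array for each probe set, made with software not given in the sources used here. They were already scaled, with a 2% trimmed mean of 801 to 801.9 and medians of 148.5 to 266.3. Gene symbols came from the platform annotation. After 59 control probe sets were left out, signals below the 40th percentile (129.5) were set to it, values were put on a log2 scale, and 6707 probe sets that exceeded it on at least 4 arrays were tested with limma 3.58.1 in R 4.3.3: 18 replicates of 2 arrays, 1 fit of 6 groups, Benjamini-Hochberg adjustment, threshold 0.05. Scripts were tested on simulated data. The number of arrays limits the precision. The members, lists and tests were chosen with earlier results of these data known; genes of a list were named if called or among the 3 smallest p at 6 h or 1 h in polysomal RNA, and per member the 3 nearest genes. Same-numbered deviations correlated at 0.431 to 0.538 between 6 h polysomal and polysomal control replicates, which meets the rule for pairs; the reported fit has no block, and fits with the number as a block were alternatives. Elsewhere the correlations ran from -0.0295 to 0.25. Alternatives were the floor, filter, scaling, arrays as samples, replicate block, control and left-out replicates.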

Additional observations from a re-analysis of the deposited data

Results flagged for a closer look

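In the polysomal control, number 3 stood apart from the other 3 numbers for Jun on rc_AI175959_at, with a signal of 1590 against 1180 to 1230. The gap was 0.873 of the range of the 4 replicates. Groups of 4 replicates with at most 1 replicate at the floor were examined, and chance flags about 1 in 20 such groups. The range of this group bears on the overlap of the 6 h polysomal and control signals of this probe set.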

How the results depend on the processing

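Of 83 member differences followed under 1328 alternative values, 1244 kept both direction and side of the threshold, 17 lost a call, 28 gained one and 39 turned direction; 63 differences kept their direction throughout. Member probe sets called at 6 h in polysomal RNA (2 as reported) were 3 with a floor at the 20th percentile and 3 with log2(signal + 100), the added one Fosl1, 1 without a filter, 1 with 75th percentile scaling, 1 with the control titled 1hr polysome as control, 6 with each array as a sample and 4 with only the 2 groups, and 1 to 2 with a replicate left out; over all probe sets the count of 23 became 8 without a filter, 106 with arrays as samples, 62 with only the 2 groups and 7 to 38 with a replicate left out (38 without number 2 of the 6 h polysomal group) (lone or fewer replicates assumed to vary like the other groups). At 1 h in total RNA (1 as reported) they were 0 with a floor at the 20th percentile, 0 with only the 2 groups, 9 with arrays as samples, 7 with the polysomal control, and 0 to 1 with a replicate left out; over all probe sets 5 became 0, 0, 113 and 564, 3 with log2(signal + 100), 10 without a filter, and 0 to 19 with a replicate left out. Between fractions at 1 h (0 as reported) they were 2 with arrays as samples (26 over all probe sets became 364), and 0 to 1 with a replicate left out, as also for 6 h against 1 h total RNA and for the change of the fraction difference, in each case Jund without number 2 of the 1 h total group in the fits with a call. The cause was not tested.

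In the other comparisons counts over all probe sets also moved. At 1 h in polysomal RNA 0 became 4 with arrays as samples and 46 without number 1 of the polysomal group. Between fractions at 6 h 588 became 390 without a filter, 128 with only the 2 groups and 247 to 1099 with a replicate left out, and at 1 h 26 became 9 with the 20th percentile floor, 45 with only the 2 groups and 1 to 85 with a replicate left out. For 6 h against 1 h total RNA 4 became 0 to 20 over the alternatives, for polysomal RNA 0 became at most 27, for the control groups at most 15, for the polysomal response at most 17 and for the change of the fraction difference at most 14.

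With the replicate block, 2 members again passed at 6 h in polysomal RNA, Atf3 (limma adjusted p = 0.00448) and Fos X06769cds_g_at (0.0396), with 33 probe sets called in all; between fractions at 1 h the block raised the count over all probe sets from 26 to 206 and called no member, and at 1 h in total RNA from 5 to 28 with Junb X54686cds_at still called. It changed no other member call. It turned Atf3 at 6 h against 1 h in total RNA to -0.32, Junb X54686cds_at at 6 h against 1 h in polysomal RNA to -0.09 and rc_AA891041_at to -0.31.

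Other differences turned direction under single settings. Jund became -0.38 at 6 h with the control titled 1hr polysome, and between fractions at 6 h 0.06 with the 20th percentile floor, 0.03 with log2(signal + 100) and 0.00 with quantile normalization. The change of the fraction difference of Fosl1 became 0.06 with quantile normalization and 0.03 with 75th percentile scaling. Leaving out a replicate gave ranges across 0. Between fractions at 6 h these were -0.08 to 0.03 for Jund, -0.09 to 0.80 for Fosl1 and -0.46 to 1.19 for Jun X17163cds_s_at. Between fractions at 1 h they were -2.81 to 0.57 for Fos X06769cds_g_at, -3.34 to 0.52 for X06769cds_at, -1.95 to 0.75 for Atf3 and -0.93 to 0.17 for Jun rc_AA944014_at. From 1 h to 6 h in total RNA they were -0.20 to 0.82 for Atf3 and -1.89 to 0.08 for Jund. From 1 h to 6 h in polysomal RNA they were -0.19 to 0.16 for Junb X54686cds_at, -0.26 to 0.42 for rc_AA891041_at, -1.29 to 2.08 for Fos X06769cds_g_at and -1.18 to 0.65 for Jun rc_AI175959_at. Against control at 1 h they were -0.41 to 1.55 for Jund in total RNA, and in polysomal RNA -0.14 to 0.96 for Jun rc_AA944014_at and -0.30 to 1.5 for rc_AA945867_at. For the polysomal response at 6 h less that at 1 h they were -1.06 to 2.32 for Fos X06769cds_g_at and -0.96 to 2.12 for X03347cds_g_at, and for the change of the fraction difference -0.61 to 0.44 for Fosl1. Signal over the floor limits Jund and Fosl1, whose differences depend on the floor where replicates lie at it.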
